A study of Caenorhabditis elegans with 2 samples.

Results

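Autosomal intronic peaks are the places where the Hox protein PHP-3 of the worm Caenorhabditis elegans was recovered by chromatin immunoprecipitation and sequencing (ChIP-seq) inside introns of protein-coding genes on chromosomes I to V. A peak was taken as a member when its summit, the position that the authors' list names within the peak, lay inside a protein-coding gene but outside every coding and untranslated exon. The summit also had to lie outside every promoter window, which began 1000 bp before the outermost annotated 5′ end of a protein-coding gene and ended 200 bp after it, and more than 300 bp from any tRNA gene. Of the 3559 peaks in the series-wide list, 588 met the rule (16.5%), or 21.6% of the autosomal peaks. The comparison classes were 1102 autosomal promoter peaks, 627 autosomal distal intergenic peaks and 280 autosomal exon and UTR peaks.

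All animals were of strain RW12213, in which CRISPR had inserted a TY1, EGFP and 3xFLAG tag at the php-3 gene on chromosome III (allele st12213). Whole L4 larvae were collected at 48 hours after synchronisation by bleaching and L1 starvation, their chromatin was sonicated, and an antibody against GFP recovered the tagged protein. The series holds 2 biological replicates of this 1 strain and stage, so a peak averages over all the tissues of the animal and no comparison between conditions exists. An untagged or input sample is not analysed here. The members are peaks, not replicates of a condition. No test was therefore run over them: shares are given with exact (Clopper-Pearson) 95% binomial intervals that cover the counting of peaks only, and differences between peak classes were not tested.

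Hox proteins are homeodomain transcription factors that give body regions their identity, and php-3 and its neighbour nob-1 are posterior, Abdominal-B-like members in the worm. Their homeodomains recognise short AT-rich sites, often together with cofactors of the PBC and Meis classes. Introns can carry enhancers, alternative promoters of their host gene and whole genes for small RNAs such as snoRNAs, which guide the chemical modification of ribosomal RNA.

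Among the strongest members the DNA letters at the summit differed. Of the 12 strongest members off the first chromosome that were found in both replicates' own lists, 4 had a posterior Hox core (TTTATG or TTTACG, either strand) within 50 bp of the summit. Over all members the share with such a core was 18.7%. The 4 are shown because TTTATG and TTTACG are the letters sought for PHP-3, with the match in capitals. Each sequence below is 30 bases of the plus strand from the RefSeq genome (WBcel235, with the coordinates of ce11), written 5′ to 3′.
Y43F8B.2 (chrV:19527732-19527761): agctgccggtaaTTTACGtgttgactgatg
Y54H5A.2 (chrIII:5146928-5146957): atcagcttgagaTTTATGaagtgaaaggtg
F54D1.6 (chrIV:11289154-11289183): tcacttatctccCATAAAtacacacgtctc
pmt-1 (chrII:5281333-5281362): tttaccgctcatCATAAAagttcattatca
In F54D1.6 and pmt-1 the match is on the minus strand, so it reads CATAAA here. The matches lay 19 bp before the summit in Y43F8B.2 and 47 bp before it in Y54H5A.2. In F54D1.6 the distance was 5 bp before it and in pmt-1 21 bp after it.

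A GATA-factor core, TGATAA, was the commonest of the 12 motifs sought at the members. It is shown for the 6 strongest members with a match, off the first chromosome and in both own lists, a set chosen after the shares were seen. Capitals mark the TGATAA match nearest to the summit, which reads TTATCA where it lies on the minus strand.
T20B3.1 (chrV:16816875-16816904): gtgtgataagagTGATAAgataataaaaca
fat-4 (chrIV:9801680-9801709): ctatgattttagTGATAAcaagaaaccgac
Y54H5A.2 (chrIII:5147019-5147048): cggtgtgaggacTGATAAcggaggtgatat
F54D1.6 (chrIV:11289139-11289168): aatgttatcaatTTATCActtatctcccat
aat-6 (chrV:11470355-11470384): ccacgccgcattTGATAAgaataaggagcc
pmt-1 (chrII:5281345-5281374): cataaaagttcaTTATCAgtgtactctcac
The summit windows of T20B3.1, fat-4 and F54D1.6 held 2 such matches each. Y54H5A.2, F54D1.6 and pmt-1 carried both a GATA-factor and a posterior Hox match.

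The letters GGTTCGA are the core of the B box, a promoter element inside tRNA genes that RNA polymerase III factors recognise. It stood within 50 bp of the summit in 18 members (3.06%). The share was 0.626% in eligible intronic windows 400 bp beside the members and 0.660% in all eligible intronic windows. It was 0.544% at promoter summits, 1.91% at distal intergenic summits, 0% at exon and UTR summits and 3.60% over the whole list. Unlike these classes, the whole list also holds the X chromosome peaks and the 123 autosomal peaks within 300 bp of a tRNA gene. Of the 18, the 4 within 300 bp of a snoRNA or snRNA gene are shown, also chosen after the shares were seen. The core is in capitals, and TCGAACC is its minus-strand form.
frm-7 (chrV:12303652-12303681): gaggcttcgttGGTTCGAcccccgcgcgta
Y43F8C.7 (chrV:19643180-19643209): gtgggtgggaaTCGAACCcggaagctgtgg
mix-1 (chrII:10840288-10840317): aatcgctcgcgGGTTCGAggccggcagcat
T24H7.2 (chrII:6248688-6248717): cacacaatgtaGGTTCGAcccccgctttac
In each of these the gene named is the protein-coding host, and the small RNA gene lies in its intron.

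The strongest members lay in host genes of several kinds. The signal is the peak height as the authors' list gives it, and each replicate value is the highest among the peaks of that replicate's ranked list that overlap the member. The strongest was in crh-2, a CREB-family transcription factor gene, at II, 5186188 to 5186438, in intron 2 of 8. Its signal was 293 in replicate 1 and 401 in replicate 2, and 707 in the series-wide list. T20B3.1 followed with 331 in replicate 1 and 348 in replicate 2 (688 series-wide; V, 16816765 to 16817029). It stood in intron 4 of 13.

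Y43F8B.2 had 243 and 348 in replicates 1 and 2 (588 series-wide). The peak in fat-4, whose product is a fatty acid desaturase that makes polyunsaturated fatty acids, had 229 in replicate 1 and 318 in replicate 2 (541 series-wide; IV, 9801573 to 9801808). It stood in the last of 5 introns. Its summit was 200 bp upstream of another annotated start of fat-4 itself. In pxn-1, a peroxidasin gene, the values were 226 and 331 (542 series-wide), in intron 17 of 21. In frm-7, a FERM-domain gene, they were 281 and 251 (537 series-wide). Replicate 2 was higher than replicate 1 in all of these but frm-7.

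Below these 6, whose series-wide signal was 537 or more, the next member stood at 405. That peak lay in cmk-1, which encodes a calcium/calmodulin-dependent kinase (IV, 1831324 to 1831449), with 193 in replicate 1 and 198 in replicate 2. The pair of top members in pkg-2, a cGMP-dependent protein kinase gene, lay in the same 6824 bp intron. One had 166 and 192 in replicates 1 and 2, and the other had 134 and 182. An intron of aakg-5, an AMP-activated kinase gamma subunit gene, had 156 and 164, and the first intron of egl-30, which encodes the G protein alpha subunit Gq, had 138 and 177. Metabolic hosts further down were pmt-1 (phosphoethanolamine methyltransferase, 379 series-wide), tre-2 (trehalase, 325) and acs-13 (acyl-CoA synthetase, 304). The amino acid transporter gene aat-6 had 397. The remaining hosts of the 25 were Y54H5A.2 (402), F54D1.6 (400), T13B5.9 (377), K05F1.10 (348), the dynein heavy chain gene dhc-4 (334), the cuticlin-like gene cutl-18 (326), F26C11.1 (321), the Integrator subunit gene ints-8 (317), F22F7.2 (305) and ltah-1.2 (298).

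Over these 25 members the series-wide signal ran from 298 to 707 with a median of 368. Replicate 1 ranged from 113 to 331 (median 172) and replicate 2 from 160 to 401 (median 192). Replicate 2 was higher in 21 and replicate 1 in 4, and the values of the 2 replicates differed by at most 1.51 times. A GATA-factor core was within 50 bp of 13 of the 25 summits and a posterior Hox core within 50 bp of 7. In 5 summits both were found. Over all members the shares were 31.8% for the GATA-factor core and 18.7% for a posterior Hox core. First introns held 8 of the 25, against 47.1% of all members. In the promoter window of another start of the same gene lay 6 summits, against 25.9% of all members. Within 300 bp of a gene annotated as snoRNA, small nuclear RNA (snRNA) or non-coding RNA (ncRNA) stood 7, against 16.5% of all members. One of these is ints-8, whose intron contains rpr-1, the RNA subunit gene of RNase P.

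**Figure D1:**
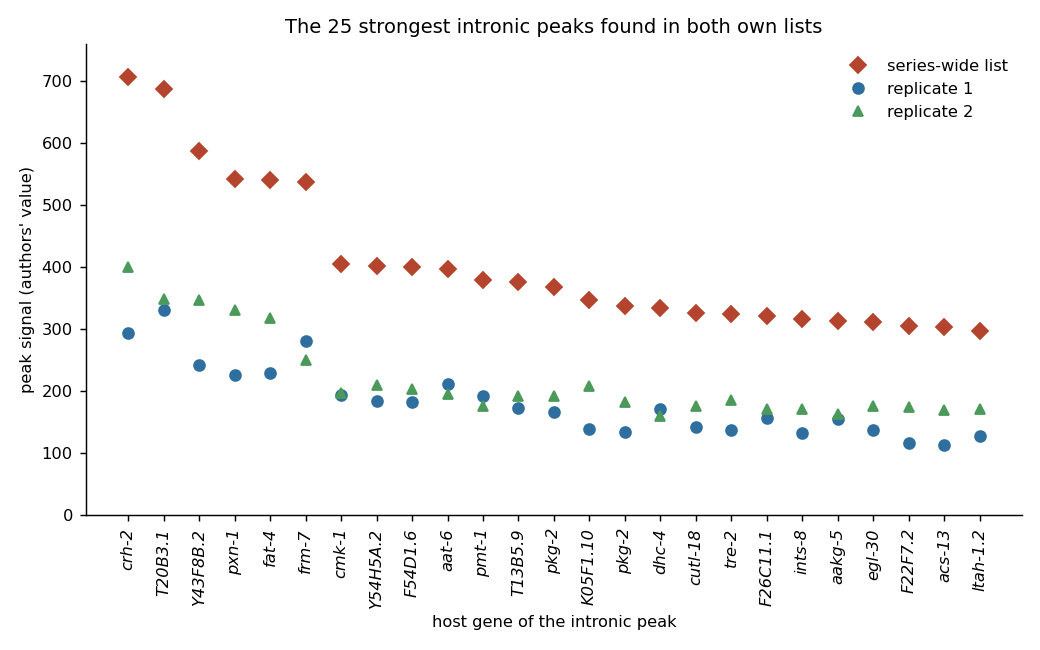
Signal of the 25 strongest intronic peaks found in both own lists, in the order of the series-wide signal, by host gene. The y axis is the authors' peak signal; diamonds are the series-wide list, circles replicate 1 and triangles replicate 2. Replicate 2 lies above replicate 1 in 21 of 25, and the 6 leading peaks stand apart at 537 or more in the series-wide list.

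Over all 588 members the signal had a median of 115, with quartiles at 92.3 and 158 and a range of 2.51 to 707. The median was 125 in promoter peaks, 123 in distal intergenic peaks and 95.5 in exon and UTR peaks. Of the 100 strongest peaks of the whole list, 13 were members. Most members (534, 90.8%) had the same width, 324 bp, and the narrower ones reached down to 81 bp. The 37 members with a signal under 50 all overlapped a stronger peak of the same list. Overlapping peaks can take their replicate values from the same replicate peak, so the replicates give no separate value for such a member. Leaving out the 38 members that overlap a stronger peak, a choice made after seeing the data, moved none of the results recomputed under it past its interval.

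In both replicates' own thresholded lists 187 members were found (31.8%, interval 28.1 to 35.7), against 35.3% of all peaks of the series-wide list. A further 71 were in replicate 1's list only, 111 in replicate 2's only and 219 (37.2%) in neither. The share in both was 37.7% in promoter peaks, 40.0% in distal intergenic peaks and 16.4% in exon and UTR peaks. It followed the signal. In the 4 equal parts of the members by signal, from low to high, it was 4.08%, 2.04%, 28.6% and 92.5%. Both measures were made from the same 2 libraries, so part of this relation is built in. In the conservative list, the authors' stricter set, 477 members (81.1%) had a peak with the same summit position. Over the whole series-wide list this share was 83.6%. By the same rule the conservative list itself held 581 autosomal intronic peaks. In 576 members with a value in each replicate, the median signal was 57.3 in replicate 1 and 64.6 in replicate 2, and replicate 2 was higher in 385. Spearman's rho between them was 0.57 and Pearson's r of their log2 values 0.67, across peaks of the same 2 libraries. The depth of the libraries is unknown, and its part in the higher values of replicate 2 was not tested.

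**Figure D2:**
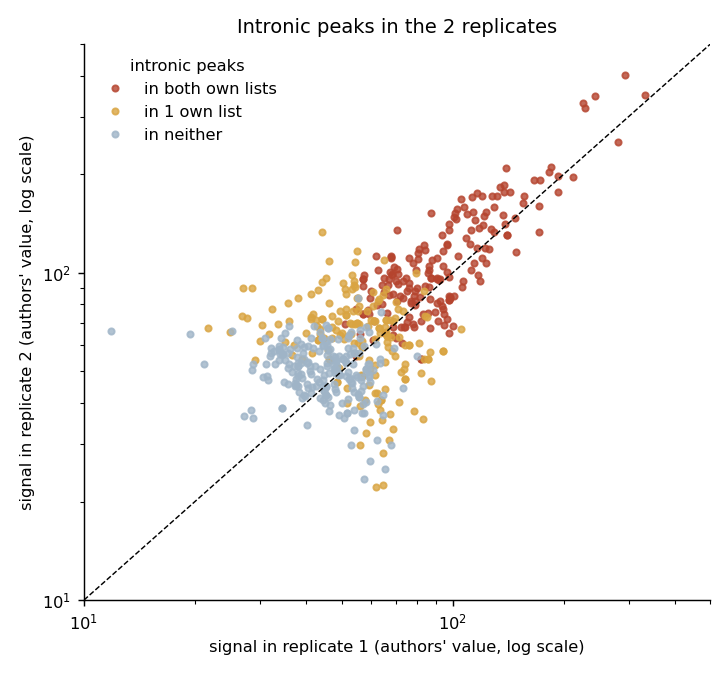
Signal of each intronic peak in replicate 1 (x axis) and replicate 2 (y axis), both the authors' values on log scales, for the 576 peaks with a value in each. Colours show whether the peak overlapped a peak of both, 1 or neither of the replicates' own lists, and the dashed line marks equal values; peaks in both own lists lie at the upper right.

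Within their host genes the members lay more often in first introns and in long introns than the intronic sequence open to them. An intron here is the shortest annotated one that holds the summit, over all transcripts of the host. Its rank is counted in the transcript it belongs to, for members and eligible bases alike. A first intron can therefore be that of a shorter transcript and lie far inside the gene. In pqn-41, for example, a first-intron summit lay 19223 bp from the outermost 5′ end. The eligible bases are all 25309 kb of autosomal intronic sequence that the rule allows. First introns held 277 members (47.1%, interval 43.0 to 51.2), against 30.8% of eligible bases, a ratio of 1.53. Introns of rank 4 or later held 152 (25.9%, interval 22.4 to 29.6), against 38.6% of eligible bases. Second introns did not stand apart in this way, with 17.9% of members and 17.6% of eligible bases.

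Introns of 3000 bp or more held 233 members (39.6%, interval 35.6 to 43.7), against 20.5% of eligible bases (ratio 1.93). Those under 300 bp held 56 (9.52%, interval 7.27 to 12.2), against 16.1%. The median host intron was 1807.5 bp long, against 977 bp over eligible bases and 70 bp over the 90713 distinct autosomal introns. The median signal was 115 in first introns, 122 in second introns, 127 in introns of rank 3 and 110.4 in those of rank 4 or later. Along the intron the summits were spread out, with 181 in its first part of 3 equal parts, 226 in the middle and 181 in the last. The median summit lay 2858 bp from the outermost 5′ end of its host, and 236 (40.1%) lay within 2000 bp of it.

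Many worm genes have annotated starts inside the gene, and some of the members lay near one. The promoter window of an internal annotated start, drawn as above around every transcript's 5′ end, took in 152 members (25.9%, interval 22.4 to 29.6), against 11.11% of eligible bases (ratio 2.33). All 152 starts belonged to the host gene itself. Among these 152, 114 (75%) lay in a first intron, so the rank and the internal starts overlap. With those 152 left out, first introns held 37.4% of the other 436 members, against 27.3% of the bases eligible under that rule. The median signal was 117 at internal starts and 113 elsewhere. Internal-start members included crh-2, where the summit was 228 bp upstream of another start, egl-30 (381 bp upstream) and F26C11.1 (154 bp upstream). In replicate support the values were close: 28.9% of those at internal starts and 32.8% of the others were in both own lists.

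**Figure D3:**
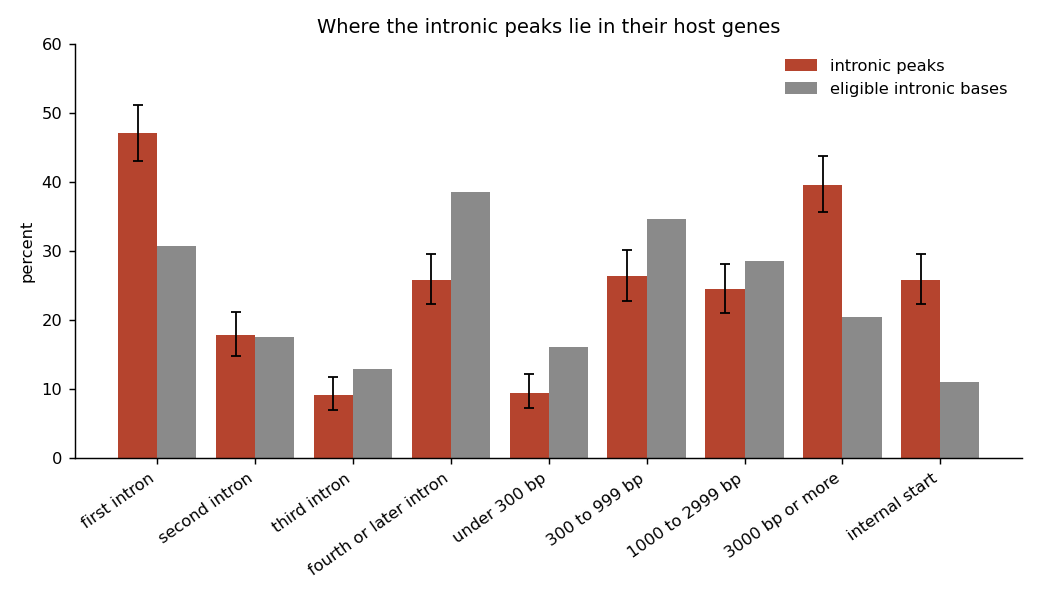
Share of the 588 intronic peaks (left bar of each pair, with exact 95% binomial intervals) and of the eligible intronic bases (right bar) by intron rank, by intron length and in the promoter window of an internal transcript start. The y axis is percent; peaks exceed bases in first introns, in introns of 3000 bp or more and at internal starts.

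Members were found near small RNA genes inside introns. Within 300 bp of a snoRNA gene lay 35 members (5.95%, interval 4.18 to 8.18), against 0.271% of eligible bases, a ratio of 22.0. Within 300 bp of an snRNA gene, a class of small nuclear RNAs that includes the spliceosomal ones, lay 11 (1.87%, interval 0.937 to 3.32), against 0.112% of eligible bases. Of the snoRNA genes with eligible sequence in reach, 35 of 172 (20.3%) had a member, and so did 10 of 64 snRNA genes (15.6%). The loosely defined ncRNA class held 70 members (11.9% against 3.77% of eligible bases). MicroRNA genes had 3 members (0.510%, interval 0.105 to 1.48), beside 3 of 83 genes. That interval takes in their share of eligible bases, 0.130%. The piRNA genes, which encode germline small RNAs, went the other way, with 11 members (1.87%) against 4.31% of eligible bases.

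The 46 summits at snoRNA or snRNA genes stood mostly just before the RNA. Relative to the 5′ end of the nearest such gene, 29 were upstream, 10 inside and 7 downstream, and 28 of the 29 lay within 100 bp of that end. The median position was 21.5 bp upstream of it. In pxn-1, cutl-18, unc-41 and catp-8 the summits lay 34, 39, 35 and 44 bp upstream of a snoRNA gene; unc-41 and catp-8 were picked out after their values were seen. Their series-wide signals were 542, 326, 266 and 255. In dhc-4 the summit lay 10 bp upstream of an snRNA gene (WBGene00014543). In frm-7 it lay inside the snoRNA gene, 41 bp from its 5′ end. The RNA gene had the strand of its host in 31 of the 46.

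The 46 are set beside the remaining 542 members here, without a test. Their median signal was 148 against 113, and 23 of them (50%) were in both own lists, against 30.3%. Their introns were shorter, with a median of 528.5 bp against 2109.5 bp. Only 8 (17.4%) lay in first introns, against 49.6% of the rest. A GATA-factor core was in 2 of their summit windows (4.35%) against 34.1% of the rest. A B box core was in 4 (8.70%) against 2.58%. Posterior Hox cores were in 15.2% of the 46 and 19.0% of the rest.

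**Figure D4:**
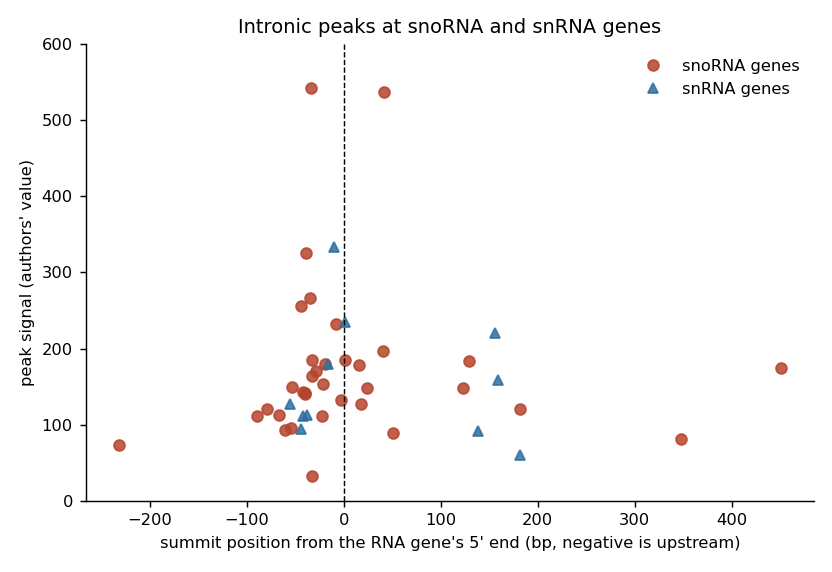
Position of the 46 intronic summits within 300 bp of a snoRNA (circles) or snRNA (triangles) gene, in bp from the 5′ end of that gene (x axis, negative values upstream), against the authors' series-wide peak signal (y axis). The dashed line marks the 5′ end; 28 summits lie in the 100 bp before it, with the highest at 542.

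Motif letters were counted in windows of 101 bp centred on the summits, on both strands. They were set beside windows of the same length 400 bp to each side that were still eligible intron (799 windows) and beside all 250505 windows of that length that tile the eligible introns. The GATA-factor core TGATAA was in 187 members (31.8%, interval 28.1 to 35.7), against 10.9% of the windows beside them and 8.47% of all windows. The share was 31.3% at promoter summits, 32.7% at distal intergenic summits and 13.9% at exon and UTR summits. The posterior Hox core TTTATG was in 80 members (13.6%, interval 10.9 to 16.6), against 8.76% beside them and 9.37% of all windows. The share was 14.3% at promoter summits, 13.4% at distal intergenic summits and 9.64% at exon and UTR summits, with 13.5% over the whole list. TTTACG was in 38 (6.46%), against 4.13% and 5.08%. The interval for TTTACG, 4.61 to 8.76, takes in the share of all windows but not that of the windows beside the members.

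Other letters followed either course. GAGAGA was in 17.5% of members, against 5.88% of the windows beside them and 4.22% of all windows. The E-box CACGTG, a site of basic helix-loop-helix proteins, was in 6.12%, against 1.25% and 1.41%. The general homeodomain core TAATTA was in fewer members, 2.21%, than windows beside them (6.01%) or all windows (5.36%). The composite of Hox and PBC letters, TGATTTAT, was in 0.680% of members, 0.626% of windows beside them and 0.824% of all windows. Its form with 2 free letters, TGATNNAT, includes every TGATTTAT and can overlap TGATAA. That form was in 8.67% of members (interval 6.53 to 11.2), 5.63% of windows beside them and 6.73% of all windows. The interval takes in the share of all windows but not that of the windows beside the members. The Meis core TGACAG was in 4.93% of members, 2.75% of windows beside them and 2.70% of all windows. TGAGTCA was in 6 members (1.02%), against 0.751% of windows beside them and 0.724% of all windows. TGACGTCA was in 3 (0.510%), against 0.626% and 0.679%. G and C made up 42.1% of the bases at the summits, against 34.0% in the eligible windows beside them and 33.0% in all eligible windows. The part of base composition in these shares was not tested.

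Motif matches went with signal to different extents. With a GATA-factor core the median signal was 135, against 104 without one. With TTTATG it was 134 against 112, and with GAGAGA 115 against 115. In members of both own lists TGATAA stood in 42.2% and TTTATG in 18.7%. In members of neither list the shares were 23.3% and 10.5%. The GATA-factor share was 31.8% in the window at the summit, 24.0% and 21.8% in the windows 100 bp to each side, and 12.8% or less beyond those. TTTATG was at 13.6% at the summit and between 7.14% and 11.2% elsewhere within 400 bp.

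**Figure D5:**
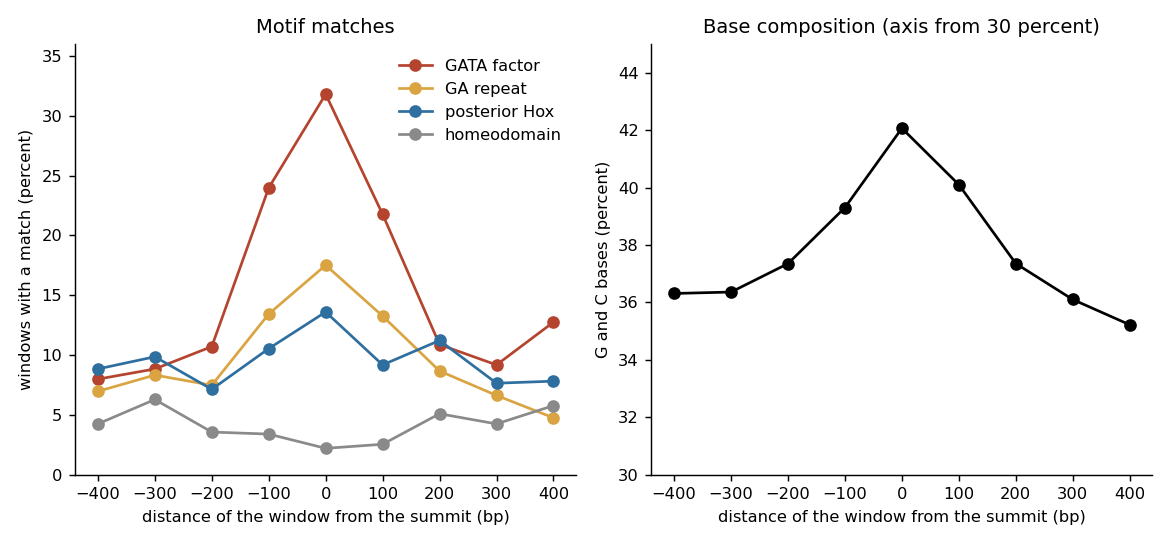
Left, share of members with a match to the core of GATA factors, a GA repeat, the first posterior Hox core or the general homeodomain core, in windows centred at each distance from the summit (x axis, bp). Right, the share of G and C bases in the same windows, on an axis that starts at 30 percent; both the GATA-factor share (31.8%) and the G and C share (42.1%) are highest at the summit.

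The members lay in 448 host genes, or 2.98% of the 15051 autosomal protein-coding genes with eligible intronic sequence. A single member was found in 359 of them, 2 in 56 and 3 or more in 33. The share of genes that held one followed their intronic length: hosts had a median of 3959 eligible bp and the other genes 670. Of genes with under 500 eligible bp, 0.348% were hosts, and of those with 5000 bp or more, 15.6%. Per megabase of eligible intron the members numbered 23.2 over the autosomes. They were densest on chromosome II (27.0), followed by III (26.0), V (23.1), IV (21.8) and I (19.5). Chromosome II also had the largest share in both own lists, 45.2%, and III the smallest, 23.0%.

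The genes with most members were pkg-2, hlh-30 and saeg-1, with 6 each. In pkg-2 all 6 were separate peaks, spread over 7279 bp of 2 introns, with signals from 84.6 to 368, and 4 were in both own lists. In hlh-30, the worm orthologue of the lysosome and autophagy regulator TFEB, 1 of the 6 overlapped a stronger peak; the highest had 121 and 149 in replicates 1 and 2. In saeg-1, known as a suppressor of activated EGL-4, another cGMP-dependent kinase, 2 of 6 overlapped a stronger peak and the highest reached 137 series-wide. In hlh-30 and in saeg-1, only 1 member each was in both own lists. With 5 members each came crh-2, pqn-41 and zfp-1, an orthologue of the chromatin protein AF10. Those in both own lists were 3 in crh-2, 3 in pqn-41 and 1 in zfp-1. In zfp-1, 2 of 5 overlapped a stronger peak, and in pqn-41 1 of 5 did. The pqn-41 count includes that overlapping member.

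Kinase and G protein signalling genes had the highest share of hosts among the 14 lists, between which no test was made; a gene in 2 lists counts in each. Of 57 with eligible introns, 14 were hosts (24.6%, interval 14.1 to 37.8), against 2.98% of all genes; they held 58.6 members per megabase. These genes have much intronic sequence, a median of 4271 eligible bp each. By density 5 lists stood higher: Hox genes and cofactors (80.8), tail and rectal regulators (80.5), chromatin (72.6), transcription factors (68.6) and intestine (66.1). The Hox and tail values rest on 3 members of 1 gene each. Of the 10 chromatin members, zfp-1 held 5 and egl-27 held 3. Of the 27 transcription factor members, hlh-30 held 6, crh-2 5, egl-44 4 and fkh-7 4. The strongest kinase and G protein hosts were cmk-1, pkg-2 and egl-30, described above, and dlk-1. The MAP kinase kinase kinase gene dlk-1, known from axon regeneration, had 115 in replicate 1 and 145 in replicate 2 (254 series-wide). In the list of EGF, FGF, Notch, TGF-beta and insulin signalling, 6 of 32 genes were hosts, with 46.3 members per megabase. Their top signals were low: daf-14, a Smad gene, at 115, lin-1, an ETS factor gene, at 114, daf-16, the FOXO gene of insulin signalling, at 109, and mpk-1, the ERK gene, at 101. None of these 4 was in both own lists.

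Transcription factor genes were hosts in 12 of 89 cases (13.5%, interval 7.17 to 22.4), with 68.6 members per megabase. They were led by crh-2 (707), hlh-30 (267), egl-44, a TEAD-family gene, and atf-7, a bZIP gene. The strongest egl-44 member had 90.5 in replicate 1 and 96.7 in replicate 2 (201 series-wide). The atf-7 member had 44.1 and 133 (184 series-wide) and was not in both own lists. Among chromatin genes, 4 of 49 were hosts: egl-27, zfp-1 (164), nurf-1 (107) and lin-9 (103). Their 10 members gave 72.6 per megabase. Those in nurf-1 and lin-9 were not in both own lists. The MTA1-related gene egl-27, also the 1 host among 13 tail and rectal regulators, held 3 members. The strongest had 137 and 150 in replicates 1 and 2 (296 series-wide). The others had 118 and 78.8 series-wide, and neither was in both own lists.

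Membrane traffic and lipid genes were hosts in 6 of 43 cases, with 49.2 members per megabase. They included fat-4 (541), the endocytic recycling gene rme-1 (123), the autophagy gene lgg-2 (113) and fat-3 (109), another fatty acid desaturase gene. Of these only the fat-4 member was in both own lists. Of 57 muscle and cytoskeleton genes, 7 were hosts. The highest signals were in frm-7 (537), erm-1, the ezrin-radixin-moesin gene (137), the tropomyosin gene lev-11 (100.5) and the spectraplakin gene vab-10 (100.03). Of these only the frm-7 member was in both own lists, and the lev-11 member overlapped no peak of replicate 1's ranked list. The density of the muscle and cytoskeleton list, 24.3 per megabase, was near that of all autosomal introns. In Wnt signalling, 2 of 26 genes were hosts, with 19.6 members per megabase against 23.2 over the autosomes. The stronger was the ROR receptor kinase gene cam-1, with 129 in replicate 1 and 159 in replicate 2 (284 series-wide). The other was the Nemo-like kinase gene lit-1 (77.1), whose member was not in both own lists.

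A pair of lists with much intronic sequence had few members for it. Axon guidance, adhesion and basement membrane genes had the most eligible intronic sequence per gene of the 14 lists (median 5647 bp) but 4 hosts of 53 and 10.9 members per megabase. The hosts were pxn-1 (542), rig-6 (142), mig-10 (133) and unc-51 (86.9), of which only pxn-1 had a member in both own lists. Ion channel, receptor and synapse genes had 4 hosts of 73 and 13.96 per megabase. These hosts were glr-2, a glutamate receptor gene with 2 members, unc-43 (190), unc-104 (158) and gtl-1 (91.1). Both glr-2 members lay within 300 bp of an snRNA gene, and only the stronger (234.7) was in both own lists. The gtl-1 member was not in both own lists. RNA processing genes had 1 host of 47, larp-1 (159, not in both own lists), and 17.2 members per megabase. Intestine genes had 1 host of 15, fat-6 (97.5, not in both own lists). Their density of 66.1 per megabase rests on this 1 member in 15.1 kb. None of 32 moulting, cuticle and seam genes was a host; over 62.7 kb of eligible intron the interval for the share reaches 10.9%.

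Among 10 autosomal Hox genes and cofactors, nob-1 was the 1 host. Its 4330 bp intron held 3 members on chromosome III, with series-wide signals of 198, 99.03 and 92.8, of which the strongest, with 103 in replicate 1 and 112 in replicate 2, was in both own lists. No member lay in an intron of the tagged gene php-3.

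The values on each side of the rule's thresholds were as follows. The nearest tRNA gene of any member was 841 bp away, and the intronic summit farthest from such a gene among those left out was 153 bp away. A summit 1006 bp upstream of a 5′ end was a member (signal 203) and one 984 bp upstream was not (180). On the other side a summit 210 bp downstream was a member (91.9) and one 193 bp downstream was not (95.2).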

How the data were processed

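ChIP-seq of tagged PHP-3 was done in 2 biological replicates, per the labels. The authors deposited peak lists on ce11, per the labels; the names of an aligner and a peak caller were not given in the sources used here. Signal and score of each peak are the authors' deposited values. The score, scaled from the irreproducible discovery rate, was at least 830 in the series-wide thresholded list. A possible control experiment is not analysed here. The conservative list held 3495 peaks and the own lists 1728 (replicate 1) and 2000 (replicate 2). Read depth is unknown.

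Genes came from Ensembl release 115 and sequence from RefSeq (WBcel235). Overlap meant 1 bp shared. The classification was run on 500 intronic and 500 other positions drawn from the same annotation and rule, and all were placed correctly. That checks the coding of the rule only, not the annotation or the summits. In 1 member the named summit lay just outside its interval.

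The members, lists and motifs were chosen with earlier results of these data known. The genes named are the 25 strongest members in both own lists, the 5 genes with most members, up to 4 hosts per list by signal, and nob-1; unc-41, catp-8 and the B box hosts Y43F8C.7, mix-1 and T24H7.2 were named after their values were seen. Alternatives concerned the peak list, promoter window, tRNA limit, exons, overlap, intron rank and motif window. The tools were pandas 2.3.3, scipy 1.17.1 and numpy 2.4.6 in Python 3.11.15, with matplotlib 3.10.9 for figures.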

Additional observations from a re-analysis of the deposited data

How the results depend on the processing

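Over 103 alternatives, 80 stayed within the interval of the reported share or median, or within 1.5 times the reported count, and 23 moved past it. The promoter window of 500 or 2000 bp, the conservative list, the tRNA limit of 1000 bp, exons of the host gene only and, chosen after seeing the data, leaving out peaks that overlap a stronger one moved none. Without replicate 1 or without replicate 2 (the other replicate's own list) there were 307 and 272 members in 242 and 224 host genes. TTTATG was then in 18.6% and 17.3%, TGATAA in 38.1% and 38.2%, and 8.47% and 9.19% lay at snoRNA genes. Peaks with a signal above the list's median left 272 members in 233 host genes, with 65.4% in both own lists, TTTATG in 18.0%, TGATAA in 43.8% and 9.19% at snoRNA genes. With windows around every transcript start, first introns held 37.4% of 436 members, still above 27.3% of eligible bases. Without the tRNA limit the median host intron was 1429 bp. With overlap of 50% of both intervals 26.0% of members were in both own lists. With 25 and 100 bp to each side, TTTATG was in 6.63% and 23.3% and TGATAA in 18.2% and 45.9%, as shorter and longer windows hold fewer and more letters. The cause of the other moves was not tested.

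No paired analysis was possible because the series has 1 group. Tissue of origin, read depth and the level in a control sample limit the account: none is known here. A share near that of eligible bases says nothing on binding at single sites, and weak peaks below the authors' threshold are not counted.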
